A study of Mus musculus with 8 samples.

Results

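Oncofetal genes are active in the embryo, fall silent in most adult tissues and return in many tumors, and imprinted genes are read from only the maternal or the paternal copy. The 10 genes described here are Igf2bp1, Igf2bp2, Igf2bp3, Lin28a, Lin28b, Hmga2, H19, Dlk1, Peg3 and Plagl1, and they were found by their symbols in the deposited count table, where all 10 are among 24419 genes. Their bulk RNA levels were compared in TPM, TPMCa, TPMR1 and TPK, which are 4 models of cancer of the mouse endometrium, with 2 libraries per model. Each model began with uterus organoids from CAG-Cas9-EGFP mice, in which the broadly active CAG promoter drives Cas9, and the organoids were edited in culture by viral vectors and then placed in the left uterus of nude mice. The edits of all 4 models include an sgRNA against Trp53. TPM, TPMCa and TPMR1 also overexpress Myc, which TPK does not. TPMCa carries an additional Pik3ca cDNA with an activating mutation, and TPMR1 an additional sgRNA against Pik3r1. The labels write these models as TPMPik3ca and TPMPik3r1. The recipients were female BALB/cA-nu mice of 8 weeks, immunodeficient but with their own stroma and vessels. The donors were females of 8 to 10 weeks, the edited organoids are not described as clones, and the replicates came from separate mice. The sample labels describe organoids and the study's methods tumor tissue about 2 months after transplantation, and which of them was sequenced is not settled here.

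The 3 Igf2bp genes encode RNA-binding proteins that hold on to and stabilize their mRNA targets in embryonic cells. Lin28a and Lin28b encode RNA-binding proteins that block the maturation of the let-7 microRNAs, and let-7 in turn represses Lin28a, Lin28b, Hmga2 and the Igf2bp mRNAs, so that these genes belong to one circuit of embryonic growth. Hmga2 encodes a chromatin protein of embryonic and tumor cells. H19 is a maternally expressed long noncoding RNA of the Igf2 domain. Dlk1, Peg3 and Plagl1 are paternally expressed genes, which encode a transmembrane protein of progenitor cells and a pair of zinc finger proteins, and imprinted genes of this kind are known for their part in fetal and placental growth.

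The let-7 microRNAs share one seed, bases 2 to 8 of the mature sequence, which pairs with a target mRNA. In the RefSeq annotation of GRCm38.p6, 9 distinct let-7 and miR-98 names from 11 loci all had that seed. The following mature sequences show it in capitals.
let-7a-5p: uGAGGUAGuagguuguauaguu
let-7d-5p: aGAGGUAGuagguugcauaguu
miR-98-5p: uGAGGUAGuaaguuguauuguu

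The letters that pair with this seed, CTACCTC, were looked for on the mRNA strand of the 3′ UTRs annotated on GRCm38 by GENCODE M21, in 1 transcript per gene. They were found in 9.06% of 20938 such 3′ UTRs. Igf2bp1, Hmga2 and Lin28b each held 4 matches and Lin28a held 2. Igf2bp2, Igf2bp3 and Peg3 each held 1. None was found in the 3′ UTRs of Dlk1 and Plagl1, and H19 has no 3′ UTR. Of the 3′ UTRs within 20% of the length of that of Hmga2, 0.134% held as many matches, and this share was 0.236% for Lin28b, 0.355% for Igf2bp1 and 2.1% for Lin28a. For the genes with a single match, between 12% and 19% of 3′ UTRs of like length held one too. All 6 oncofetal mRNAs thus held the letters, and 1 of the 3 imprinted mRNAs did. The first match of each gene is printed with the bases around it, read along the mRNA. The seed match is in capitals and positions are on GRCm38. Each first match but that of Peg3 was followed by an A. Of all matches, this held for 3 of 4 in Igf2bp1, 2 of 2 in Lin28a, and 1 of 4 in both Hmga2 and Lin28b.
Igf2bp1, chr11:95961778-95961799 (minus strand): ctgtgcgaagtaaaCTACCTCa
Igf2bp2, chr16:22059473-22059494 (minus strand): cacacaaataaaagCTACCTCa
Igf2bp3, chr6:49086787-49086808 (minus strand): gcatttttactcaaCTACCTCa
Hmga2, chr10:120364224-120364245 (minus strand): ccgacattcaatttCTACCTCa
Lin28a, chr4:134005189-134005210 (minus strand): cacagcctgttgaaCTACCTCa
Lin28b, chr10:45381022-45381043 (minus strand): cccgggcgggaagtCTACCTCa
Peg3, chr7:6706883-6706904 (minus strand): gagtgttctgtcccCTACCTCt

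**Figure D1:**
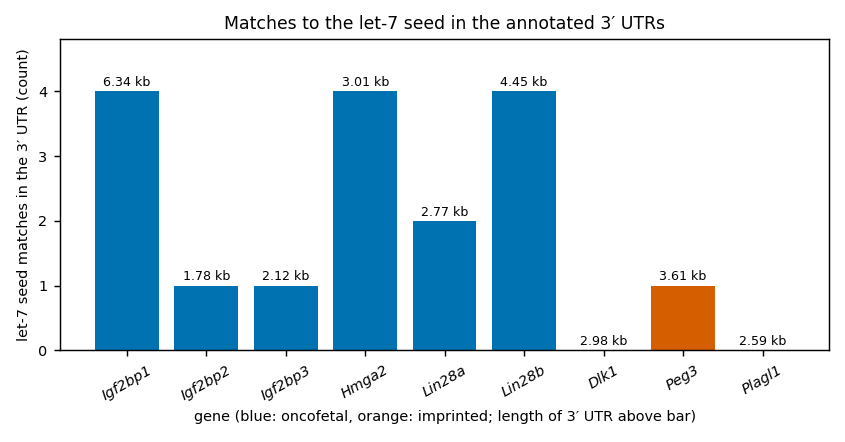
Number of matches to the let-7 seed (y axis, count) in the annotated 3′ UTR of each protein-coding gene (x axis), with the length of the 3′ UTR above each bar. Igf2bp1, Hmga2 and Lin28b have 4 matches each, and Dlk1 and Plagl1 have 0.

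The libraries held between 15748396 and 26943611 counts. Levels are given in CPM, the count of a gene relative to the TMM-scaled total of its library, and the floor was set at 3 counts, or 0.116 to 0.198 CPM per library, a limit that covers counting error only. Replicates differed widely, with 749 genes over 4-fold apart between the TPM libraries and 2701 between those of TPMR1. The makeup of the libraries differed as well. The summed level of 6 epithelial markers, all of them above the floor in each library, was 2941 to 5498 CPM in TPM and 3236 to 4963 CPM in TPK, but 23.7 to 73.3 CPM in TPMCa and 6.47 to 27.4 CPM in TPMR1. The tissue named in the labels, an endometrial cancer, is an epithelial one, and these markers were thus far lower in TPMCa and TPMR1 than in TPM and TPK, though still detected. The epithelial adhesion gene Cdh1 was at 0.271 and 0.500 CPM in TPMR1, against 698 CPM or more in each TPM library. The summed level of 5 basal squamous markers was 3885 to 15520 CPM in TPM, 12280 to 19490 CPM in TPK and at most 11.7 CPM in TPMCa and TPMR1, where Krt5 was listed at 0 in both TPMR1 libraries. The 6 markers of steroid-making cells summed to 445.9 and 5079 CPM in TPMR1 and to at most 22.7 CPM elsewhere. Fibroblast markers, 6 in number and all above the floor, summed to 860.5 CPM in replicate 1 of TPMR1 and to between 2353 and 16200 CPM in the other libraries. Endothelial markers, 5 in number and all above the floor, summed to 366.8 and 482.1 CPM in TPMCa, 146 and 599.2 CPM in TPMR1, and at most 141.4 CPM in TPM and TPK. These differences lie along the same lines as the model comparisons below, and their part in them was not tested. In bulk RNA, fewer cells of a type and less RNA per cell cannot be told apart. Myc was at 92.8 to 153.5 CPM in TPK and at 323.5 CPM or more in the models that overexpress it, where its counts do not separate the introduced from the native gene.

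**Figure D2:**
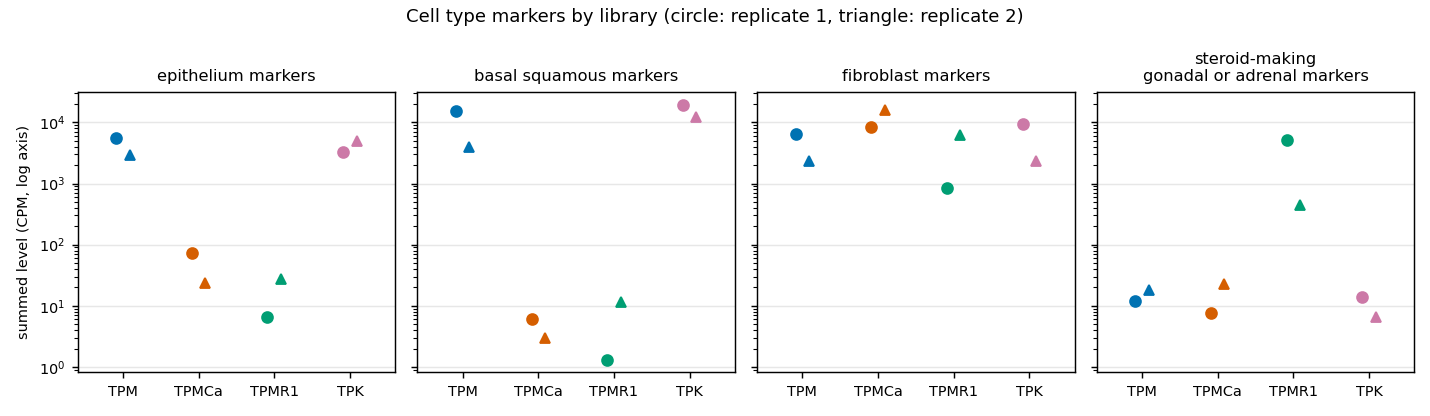
Summed CPM (y axis, log scale) of markers of epithelium, basal squamous cells, fibroblasts and steroid-making cells in each library, by model (x axis), with circles for replicate 1 and triangles for replicate 2. The epithelial sums lie at 2941 CPM or more in TPM and TPK and at 73.3 CPM or less in TPMCa and TPMR1.

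The Igf2bp family was led by Igf2bp2 in TPM, TPMCa and TPK. Levels per length, CPM per kb of annotated exon, are needed to compare genes with each other, and on that scale Igf2bp2 was at 14.5 ± 7.19 (SD, n = 2) in TPM, 5.71 ± 1.52 in TPK, 2.03 ± 0.807 in TPMCa and 0.995 ± 0.844 in TPMR1. Igf2bp1 was at 2.52 ± 2.77 CPM per kb in TPM, and Igf2bp3 reached 0.843 ± 0.205 CPM per kb in TPMR1, where it overlapped with Igf2bp2 and where the longest transcript as length gave 1.58 for Igf2bp3 and 1.49 for Igf2bp2. The coding sequences of the family share 69.2 to 69.8% of their aligned bases, with no shared run over 29 bases, against reads of 150 bases.

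Igf2bp2, on chromosome 16 of GRCm38 from 22059009 to 22163299 on the minus strand, encodes the family member that also persists in adult tissues. It was at 69.5 and 144.8 CPM in TPM, at 50.2 and 34.3 CPM in TPK, at 19.2 and 10.8 CPM in TPMCa, and at 2.94 and 11.8 CPM in TPMR1. TPM lay above TPK and TPK above TPMCa and TPMR1 in every library, whereas the last 2 models overlapped. The summed epithelial and basal squamous markers were likewise higher in each TPM and TPK library than in TPMCa and TPMR1. Unlike Igf2bp2, both sums overlapped between TPM and TPK. In TPM, replicate 2 had more Igf2bp2 than replicate 1 but lower sums, at 2941 against 5498 CPM for epithelial and 3885 against 15520 CPM for squamous markers. The part of these markers in the Igf2bp2 levels was not tested. Igf2bp2 was lower in TPMR1 than in TPM, with a log2 fold change of -3.87 (SE 0.772, adjusted p = 0.0388 from edgeR). It was the only one of the 9 genes tested to pass in that comparison, in which 5.58% of all 15875 genes tested passed. As shares of all genes tested, 4.5% were called lower and 1.08% higher. Set against TPM, it had a log2 fold change of -2.83 in TPMCa (adjusted p = 0.0904) and of -1.34 in TPK (adjusted p = 0.732), and against the mean of TPMCa and TPMR1 it was 2.01 in TPK (adjusted p = 0.0631). The call in TPMR1 was lost without any one of 7 libraries, at adjusted p between 0.0552 without replicate 1 of TPMR1 and 0.151 without replicate 2 of TPM, and was kept without replicate 2 of TPMR1 (adjusted p = 0.0122).

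Igf2bp1, on chromosome 11 of GRCm38 from 95957163 to 96005940 on the minus strand, encodes the member most restricted to embryonic cells. It had 90 and 757 counts in TPM, but 20 and 3 in TPMCa, 3 and 6 in TPMR1, and 2 and 3 in TPK. In CPM, TPM stood at 5.42 and 43.3, TPMCa at 1.27 and 0.167, TPMR1 at 0.116 and 0.334, and TPK at 0.114 and 0.198. Both TPM libraries lay above all other libraries, although they lay 7.99-fold apart, and the other 3 models overlapped near the floor. The pooled TPM level was 162 times that of TPK (95% interval 69.3 to 501) and 121 times that of TPMR1 (63.4 to 265). These intervals cover counting error only, and replicate 2 of TPM gave most of the TPM counts. The 4 models differed in the joint test over all libraries (adjusted p = 0.039 from edgeR), which 7.32% of all genes tested passed. This call was lost without any one library of TPM, TPMCa or TPK, at adjusted p between 0.0515 and 0.217, and with a replicate term (adjusted p = 0.0894). In single pairs its difference from TPM on the log2 scale was -5.09 in TPMCa (SE 1.39, adjusted p = 0.101), -6.76 in TPMR1 (SE 1.52, adjusted p = 0.0544) and -7.24 in TPK (SE 1.57, adjusted p = 0.653), none of which passed. The 3 comparisons share the TPM libraries. Without replicate 2 of TPM, the log2 fold changes were -2.92, -4.58 and -5.07.

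Igf2bp3, on chromosome 6 of GRCm38 from 49085223 to 49214957 on the minus strand, encodes a member long used as a marker of aggressive tumors. It followed another order than its relatives. It was at 5.69 and 8.06 CPM in TPMR1, at 2.85 and 2.17 CPM in TPMCa, at 1.49 and 1.78 CPM in TPK and at 1.87 and 1.14 CPM in TPM. The TPMR1 libraries were the highest and did not overlap with any other model, TPMCa came next, and TPK and TPM overlapped. The summed markers of steroid-making cells were also highest in both TPMR1 libraries. Within TPMR1 they ran the other way, at 5079 CPM in replicate 1, which had less Igf2bp3, and 445.9 CPM in replicate 2. Of the single markers, Cyp11b1 was at 0 CPM in replicate 2 of TPMR1 and 0.361 CPM in replicate 1 of TPM. The part of these markers in the Igf2bp3 levels was not tested. The log2 fold change of TPMR1 was 2.19 against TPM (SE 0.605, adjusted p = 0.0915) and 1.45 against TPMCa (SE 0.589, adjusted p = 0.419), so that neither passed. Of its exon bases, 18.7% lie on the opposite strand of exons of Malsu1, and whether strand was used in counting is not given in the sources used here. Malsu1 was at 15.6 to 23.8 CPM in all 8 libraries.

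The Lin28 genes were at or near the limit of detection. Lin28a, on chromosome 4 of GRCm38 from 134003330 to 134018841, had 8 and 40 counts in TPM, 11 and 3 in TPMCa, 0 and 9 in TPMR1, and 17 and 5 in TPK. The models overlapped throughout, and the joint test gave an adjusted p of 0.63 from edgeR. Lin28b, on chromosome 10 of GRCm38 from 45376620 to 45486395, had 1 and 3 counts in TPM, 10 and 1 in TPMCa, 1 and 1 in TPMR1, and 7 and 6 in TPK. It was at or under the floor in 5 libraries and had too few counts to be tested, so differences were not detectable at this depth. The 2 genes share 71.1% of their aligned coding bases, with no shared run over 20 bases. Of 11 symbols of let-7 microRNA genes in the table, 6 had any count and the highest count was 17. Libraries of polyadenylated RNA do not measure mature microRNAs.

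Hmga2, on chromosome 10 of GRCm38 from 120361275 to 120476469, varied widely between replicates. It was at 2.05 and 4.92 CPM in TPM, 19.9 and 2.39 CPM in TPMCa, 0.0774 and 1.22 CPM in TPMR1, and 2.63 and 0.132 CPM in TPK. Replicates lay 2.4-fold apart in TPM, 8.31-fold in TPMCa, 15.8-fold in TPMR1 and 19.9-fold in TPK. Both TPMR1 libraries were below both TPM libraries and both TPMCa libraries, and no other pair of these models was apart. The log2 fold change of TPMR1 against TPMCa was -4.11 (SE 1.83, adjusted p = 0.445), and it was -1.92 without replicate 1 of TPMCa.

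**Figure D3:**
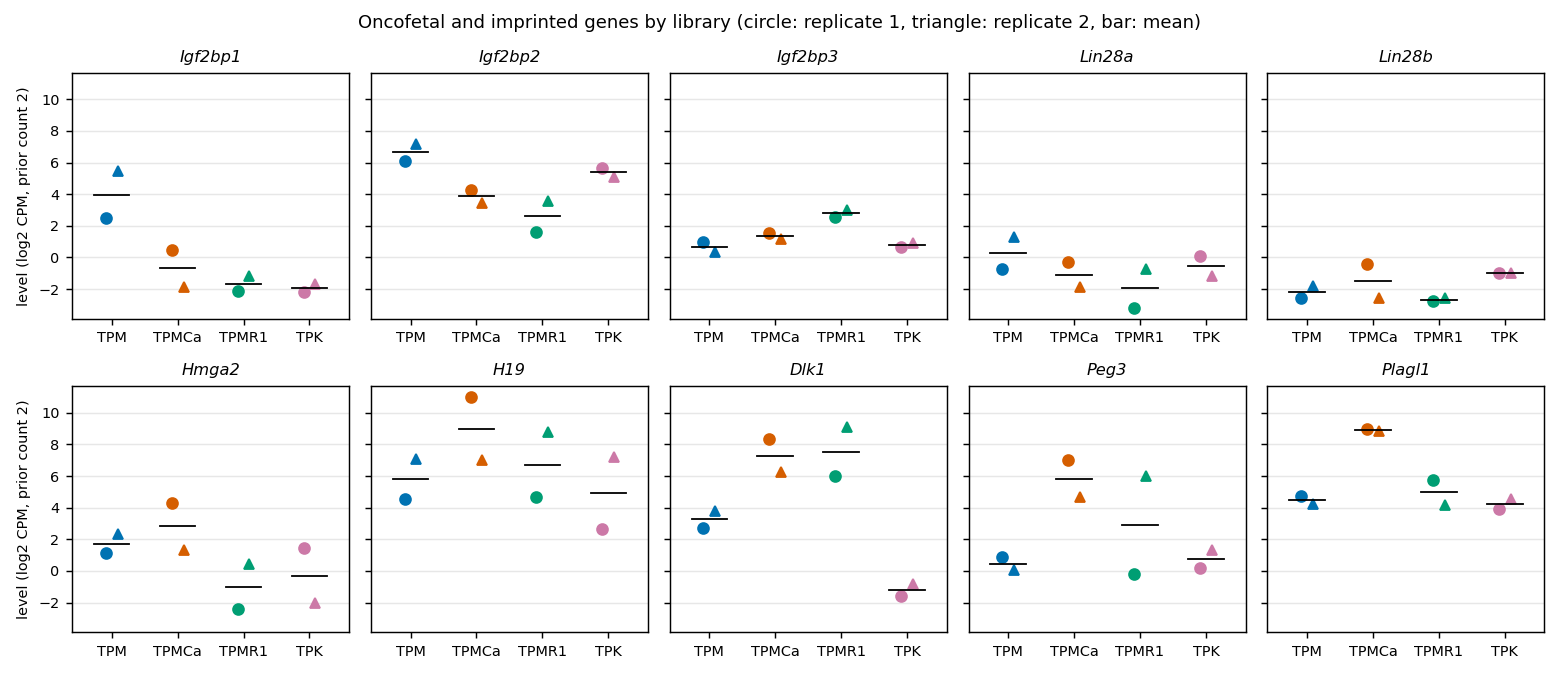
Level of each gene in log2 CPM with a prior count of 2 (y axis) in the 2 libraries of each model (x axis), with circles for replicate 1, triangles for replicate 2 and bars for the mean. The Igf2bp1 and Igf2bp2 points are highest in TPM, the Plagl1 points are highest in TPMCa at 505 and 452 CPM, and the Dlk1 points are lowest in TPK at 0.229 and 0.461 CPM.

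Among the imprinted genes, Dlk1 spanned the widest range of the 10 genes, 10.68 on the log2 scale between its highest and lowest library. It encodes a membrane protein of progenitor cells that resembles the Notch ligands. The gene spans 109452823 to 109463336 of chromosome 12 of GRCm38 on the plus strand. It was at 63.2 and 555 CPM in TPMR1, at 320 and 76.7 CPM in TPMCa, at 6.56 and 13.96 CPM in TPM, and at 0.229 and 0.461 CPM in TPK. TPMR1 and TPMCa overlapped, every one of their libraries lay above TPM, and both TPM libraries lay above TPK. The summed endothelial markers were also higher in each TPMCa and TPMR1 library than in TPM and TPK, but replicate 1 of TPMR1, at 146 CPM, was close to replicate 1 of TPK, at 141.4 CPM. Between these libraries Cdh5, Kdr and Emcn were higher in TPMR1, and Pecam1 (46.1 against 58.35 CPM) and Tek (2.865 against 5.94 CPM) were lower. The summed epithelial and basal squamous markers were lower in each TPMCa and TPMR1 library than in TPM and TPK. The part of these markers in the Dlk1 levels was not tested. The TPK libraries held 4 and 7 counts of Dlk1, near the floor of 3 counts, so the size of any difference from TPK rests on few reads. Dlk1 was lower in TPK than in the mean of TPMCa and TPMR1, with a log2 fold change of -9.48 (SE 1.53, adjusted p = 0.0116 from edgeR). In that comparison 2 of the 9 genes were called, Dlk1 and Plagl1, against 14.4% of all genes tested. As shares of all genes tested, 4.06% were called lower and 10.3% higher. A further 3 of the 9, or 5 in all, had an unadjusted p under 0.05, against 32% of all genes, and 3 of the 9 had groups that did not overlap, against 40.8%. The call for Dlk1 was lost without replicate 1 of TPK (adjusted p = 0.0885) and without replicate 2 of TPK (adjusted p = 0.101), when TPK rests on 1 library that is assumed to vary like the others. Set against TPM, TPMCa had a log2 fold change of 4.27 (SE 1.19, adjusted p = 0.105) and TPMR1 one of 4.91 (SE 1.22, adjusted p = 0.0703). Against TPM, TPK had a log2 fold change of -4.89 (SE 1.35, adjusted p = 0.653). The pooled TPM level was 30.75 times that of TPK (95% interval 17.0 to 62.2, for counting error only). The joint test of the 4 models called Dlk1 (adjusted p = 0.0333 from edgeR), but not without any one library of TPM, TPMCa or TPK, at adjusted p between 0.0578 and 0.151, nor with a replicate term (adjusted p = 0.0599).

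The maternally expressed genes of the same domain did not follow Dlk1. Meg3, a noncoding RNA that starts 77.7 kb beyond the end of Dlk1, was at 30.6 and 45.8 CPM in TPM, 30.3 and 37.2 CPM in TPMCa, 101 and 10.1 CPM in TPMR1, and 87.4 and 32.3 CPM in TPK. Rian, further along the domain, was likewise highest in replicate 1 of TPMR1 at 43.6 CPM and lowest in its replicate 2 at 5.78 CPM. Its TPK libraries, at 40.2 and 15.6 CPM, lay above both TPM libraries, at 11.3 and 14.2 CPM (log2 fold change 1.13, adjusted p = 0.815 from edgeR), and the other pairs of models overlapped. In TPMR1 the replicate with more Meg3 and Rian was the one with less Dlk1. Mirg was at 0.222 to 1.83 CPM, and Rtl1, a paternally expressed gene, had at most 16 counts. Dio3, a deiodinase gene at the far end of the domain, was at 5.03 and 2.18 CPM in TPK and at 0.629 CPM or less elsewhere, and it was higher in TPK than in the mean of TPMCa and TPMR1 (log2 fold change 4.22, SE 0.849, adjusted p = 0.0225 from edgeR). That call was lost without any one library of TPM or TPK or replicate 1 of TPMCa, at adjusted p between 0.0528 and 0.156.

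Plagl1, on chromosome 10 of GRCm38 from 13060504 to 13131694 on the plus strand, encodes a zinc finger transcription factor that slows cell division and regulates other imprinted genes. It was at 505 and 452 CPM in TPMCa, at 54.1 and 17.95 CPM in TPMR1, at 27.1 and 18.5 CPM in TPM, and at 15.1 and 23.7 CPM in TPK. The TPMCa libraries stood above the other 6 libraries and lay 1.12-fold apart, and the other models overlapped. Plagl1 was higher in TPMCa than in TPM, with a log2 fold change of 4.39 (SE 0.601, adjusted p = 0.0181 from edgeR). It was the 1 gene of the 9 called in that comparison, in which 3.48% of all genes tested passed. As shares of all genes tested, 0.466% were called higher and 3.02% lower. Plagl1 was also lower in TPK than in the mean of TPMCa and TPMR1, with a log2 fold change of -2.76 (SE 0.525, adjusted p = 0.0193 from edgeR), although TPK overlapped with TPMR1. The difference of TPMR1 from TPMCa, -3.73 on the log2 scale (SE 0.582), had an unadjusted p of 0.00043 but an adjusted p of 0.364 from edgeR. The 4 models differed jointly (adjusted p = 0.0109), a call lost without replicate 1 of TPMCa (adjusted p = 0.0503) or replicate 2 of TPK (adjusted p = 0.0506). Without either library of TPM or of TPMCa the call against TPM was lost, at adjusted p between 0.0883 and 0.111, with log2 fold changes of 4.13 to 4.70, and without replicate 2 of TPK it was lost at an adjusted p of 0.0508. The call for TPK was lost without replicate 1 of TPMCa (adjusted p = 0.0609) and without replicate 1 or 2 of TPK (adjusted p = 0.129 and 0.109). Hymai, an imprinted RNA of the Plagl1 locus that was in the count table but not in the annotation used, had 147 and 42 counts in TPMCa, 0 in both TPM libraries, and between 0 and 5 in the rest. It did not pass in TPMCa against TPM (adjusted p = 0.0621 from edgeR) or in the joint test (adjusted p = 0.0516).

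The promoters of the members called in a comparison of models are printed as RefSeq gives them on GRCm38.p6, from 250 bases before to 50 bases after the start, read along the gene, with CG dinucleotides, the sites of DNA methylation, in capitals. Igf2bp1, called in the joint test alone, had no entry among these promoters. They show how unlike the CG content of these genes is. The promoter of Igf2bp2 holds 47 CG dinucleotides, and 1.44% of 32851 promoters hold as many or more. That of Plagl1, at a start inside the gene span given above, holds 26, a number reached by 16.9% of promoters. That of Dlk1 holds 9, reached by 45.8%, and the median over all promoters is 7. Among the other members with an entry the count was 25 in Igf2bp3, 13 in Peg3, 12 in Hmga2, 10 in Lin28a and 8 in Lin28b. The files hold no methylation values.
Igf2bp2, chr16:22163250-22163549 (minus strand): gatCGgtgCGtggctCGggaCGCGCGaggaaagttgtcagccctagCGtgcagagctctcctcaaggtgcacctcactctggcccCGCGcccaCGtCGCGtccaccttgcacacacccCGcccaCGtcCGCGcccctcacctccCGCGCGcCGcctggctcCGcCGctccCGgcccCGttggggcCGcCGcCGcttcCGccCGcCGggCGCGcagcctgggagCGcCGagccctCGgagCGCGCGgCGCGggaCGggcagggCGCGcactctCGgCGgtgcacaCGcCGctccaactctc
Dlk1, chr12:109452573-109452872 (plus strand): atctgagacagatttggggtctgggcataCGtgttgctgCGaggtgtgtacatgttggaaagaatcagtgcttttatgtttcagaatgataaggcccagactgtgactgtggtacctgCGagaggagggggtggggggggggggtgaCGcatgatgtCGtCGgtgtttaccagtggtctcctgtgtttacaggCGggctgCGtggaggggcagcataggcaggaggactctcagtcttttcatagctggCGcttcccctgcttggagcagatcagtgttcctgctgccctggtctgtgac
Plagl1, chr10:13090582-13090881 (plus strand): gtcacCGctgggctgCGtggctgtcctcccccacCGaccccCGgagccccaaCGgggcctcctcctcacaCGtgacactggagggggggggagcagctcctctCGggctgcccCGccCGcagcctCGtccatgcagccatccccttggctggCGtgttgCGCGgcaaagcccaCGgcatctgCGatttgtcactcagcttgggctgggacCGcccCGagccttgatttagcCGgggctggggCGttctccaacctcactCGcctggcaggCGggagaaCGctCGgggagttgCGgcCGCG

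Peg3, on chromosome 7 of GRCm38 from 6703892 to 6730431 on the minus strand, encodes a large zinc finger protein linked to growth and maternal behavior. It was at 128 and 25 CPM in TPMCa, 0.774 and 63.6 CPM in TPMR1, 1.75 and 0.915 CPM in TPM, and 1.03 and 2.44 CPM in TPK. Both TPMCa libraries and replicate 2 of TPMR1 were high, and replicate 1 of TPMR1 was below all other libraries. The summed endothelial markers were highest in the same 3 libraries, although Tek was lower in replicate 2 of TPMR1 (4.56 CPM) than in replicate 1 of TPK (5.94 CPM). Their part in this was not tested. The TPMR1 replicates lay 82.2-fold apart. Compared with TPM, Peg3 had a log2 fold change of 5.84 in TPMCa (SE 1.94, adjusted p = 0.152) and of 4.59 in TPMR1 (SE 1.84, adjusted p = 0.198), and the latter was -0.77 without replicate 2 of TPMR1. Its neighbors were likewise highest in TPMCa and in replicate 2 of TPMR1. Zim1, 7.44 kb away and maternally expressed, had 50 and 49 counts in TPMCa, 4 and 194 in TPMR1, 0 and 0 in TPM, and 0 and 2 in TPK. The paternally expressed Usp29, whose start lies 0.147 kb from that of Peg3, had 28 and 7 counts in TPMCa, 0 and 19 in TPMR1, and 0 in each TPM and TPK library. Neither gene passed in TPMCa against TPM (adjusted p = 0.166 for Zim1 and 0.264 for Usp29 from edgeR), and Zim1 did not pass in TPMR1 against TPM (adjusted p = 0.128), where replicate 1 was near the floor.

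H19, on chromosome 7 of GRCm38 from 142575529 to 142578143 on the minus strand, is the host of miR-675 and had the highest mean level per length of the 10 genes in each model, a rank carried by 1 replicate in TPMCa, TPMR1 and TPK. It was at 433 ± 537 CPM per kb (SD, n = 2) in TPMCa, 93 ± 117 in TPMR1, 32.4 ± 32.2 in TPM and 30.8 ± 40.1 in TPK. In the replicate with less H19 another gene was higher per length, Plagl1 at 57.8 against 53.4 for H19 in TPMCa, Dlk1 at 11.2 against 10.5 in TPMR1, and Igf2bp2 at 6.79 against 2.46 in TPK. In CPM it was at 1999 and 131 in TPMCa, 25.8 and 432 in TPMR1, 23.6 and 136 in TPM, and 6.06 and 145 in TPK. Every model overlapped with every other, and replicates of the same model lay 5.75-fold to 24-fold apart. The joint test gave an adjusted p of 0.38 from edgeR. Igf2, the paternally expressed growth factor gene 72.6 kb from H19, was at 1090 and 6.12 CPM in TPMCa, 14.4 and 55.6 CPM in TPMR1, 3.55 and 15.6 CPM in TPM, and 2.74 and 6.39 CPM in TPK. Both genes were highest in replicate 1 of TPMCa, and in TPM, TPMR1 and TPK the replicate with more H19 also had more Igf2. The log2 fold change of Igf2 in TPMCa against TPM was 5.84 (SE 2.15, adjusted p = 0.182), and that of H19 was 3.74 (SE 2.08, adjusted p = 0.334) and 0.75 without replicate 1 of TPMCa.

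**Figure D4:**
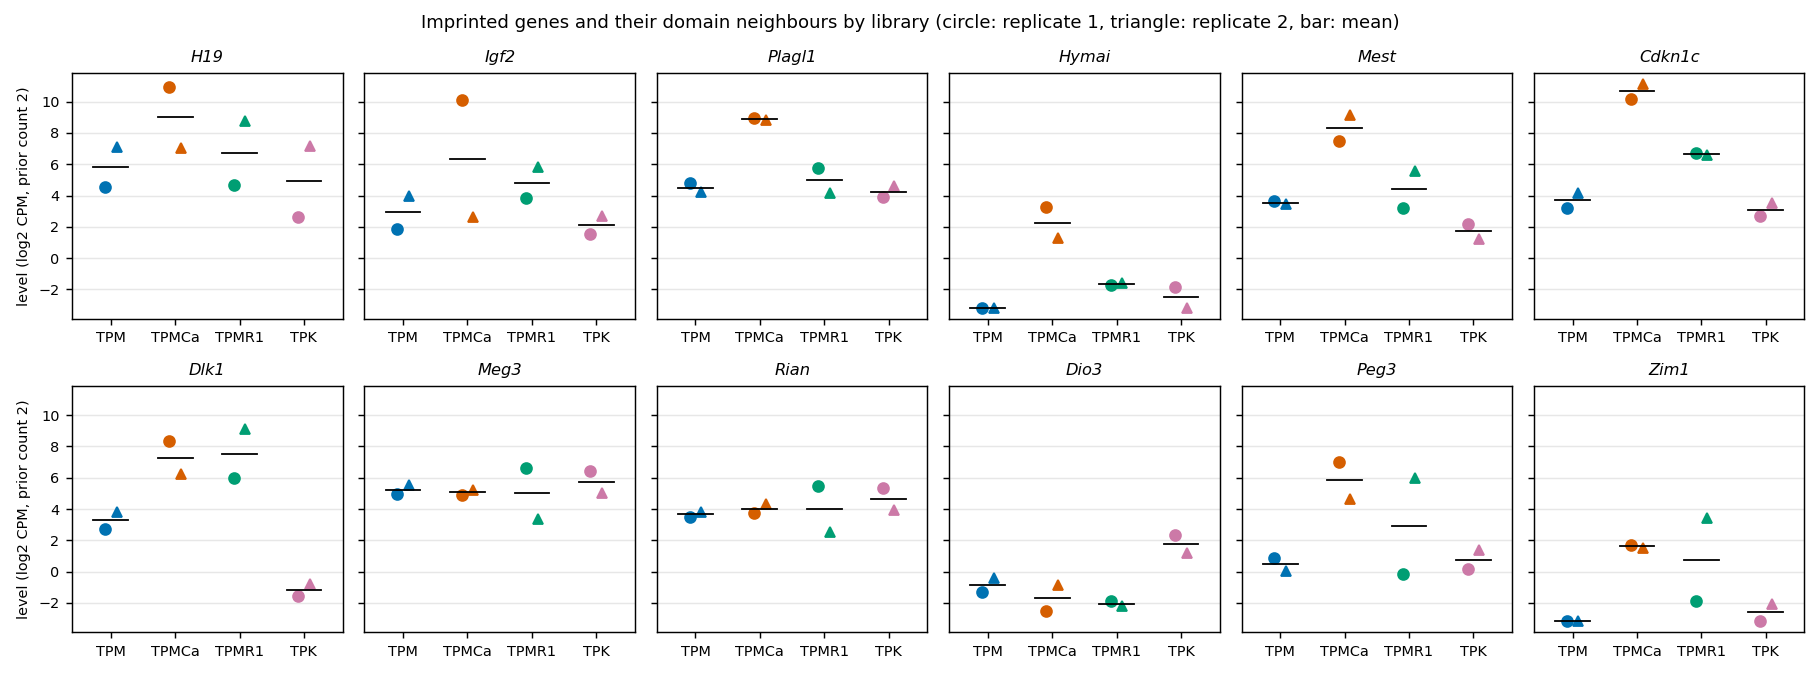
Level in log2 CPM with a prior count of 2 (y axis) of imprinted genes and their domain neighbors in the 2 libraries of each model (x axis), with circles for replicate 1, triangles for replicate 2 and bars for the mean. Plagl1, Hymai, Mest and Cdkn1c have their highest means in TPMCa, and Meg3 and Rian do not follow Dlk1.

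Across the 5 comparisons the 9 tested genes were called 4 times. In TPMCa against TPM their median log2 fold change was 1.67 and in TPMR1 against TPM 0.66, while the medians of all genes tested were -0.01 and 0.03. In TPMCa against TPM, 6 of 9 had groups that did not overlap, against 61.3% of all genes tested, and in TPMR1 against TPM 5 of 9, against 52.9%, both near the share of all genes. At an unadjusted p under 0.05 there were 5 of 9 in each of these comparisons, against 22.1% and 23.1% of all genes. For TPK against TPM, 0 of the 9 passed with edgeR and 0% of all genes did, and 3 of the 9 had groups that did not overlap, against 47.9%. At an unadjusted p under 0.05 there were 2, Igf2bp1 and Dlk1, against 7.17% of all genes, and DESeq2 called the same 2, against 1.51% of all genes. For TPMR1 against TPMCa, 0 of the 9 and 0% of all genes passed with edgeR, and 3 of the 9 had groups that did not overlap, against 36.5%. There 2 had an unadjusted p under 0.05, Igf2bp3 and Plagl1, against 11.8% of all genes, and DESeq2 called 1, Plagl1, against 4.96%. DESeq2 called 5 of the 9 in TPMCa against TPM and 5 in TPMR1 against TPM, where it called 16% and 18.1% of all genes. It called 5 in TPK against the mean of TPMCa and TPMR1 and 6 jointly, against 28.4% and 30% of all genes.

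**Figure D5:**
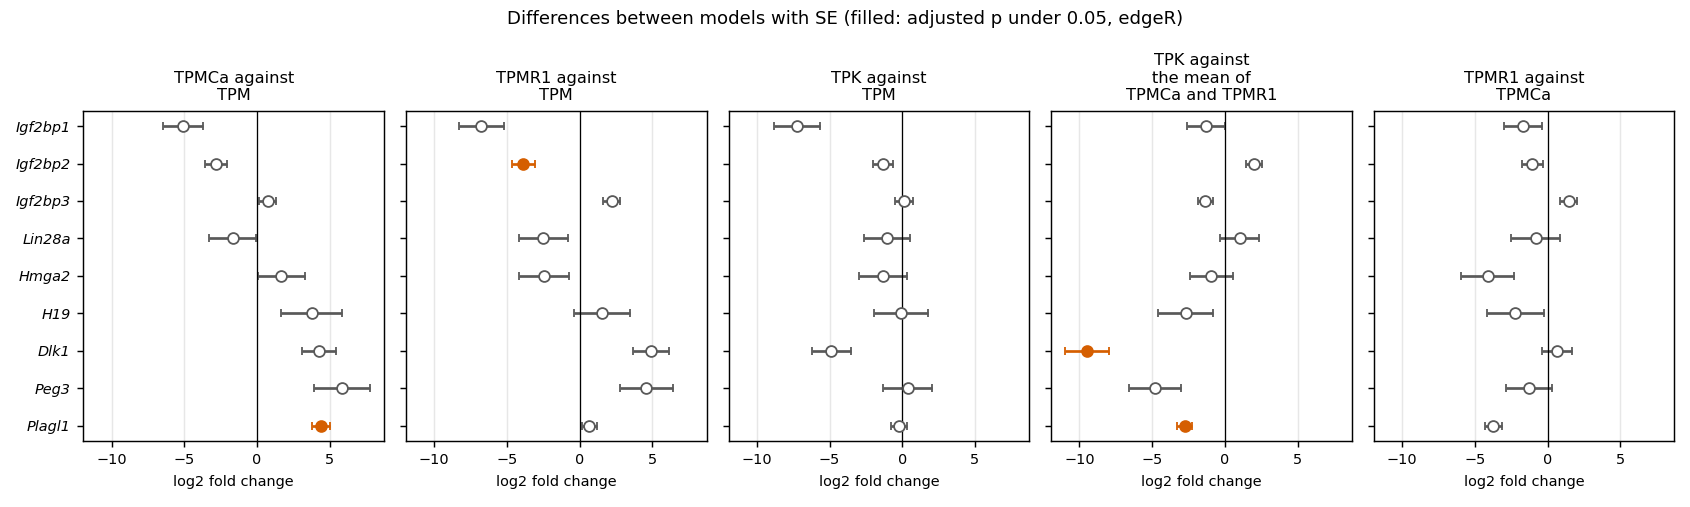
Log2 fold change (x axis) of the 9 tested genes (y axis) in each of the 5 comparisons, with bars of 1 SE and filled points for an adjusted p under 0.05 from edgeR. The filled points are Plagl1 in TPMCa against TPM at 4.39, Igf2bp2 in TPMR1 against TPM at -3.87, and Dlk1 and Plagl1 in TPK against the mean of TPMCa and TPMR1 at -9.48 and -2.76.

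Other imprinted genes were examined as lists of 30 paternally and 29 maternally expressed genes, of which 25 and 26 were tested. In TPMCa against TPM, where 3.48% of all genes passed, the median log2 fold change of the paternal genes was 2.39. Their changes were positive in 18 and negative in 7, and 1 gene passed. That gene was Mest, an imprinted gene of mesoderm, at 177 and 572 CPM in TPMCa and 12.3 and 11 CPM in TPM (log2 fold change 5.01, SE 0.978, adjusted p = 0.0467 from edgeR). The median of the maternal genes was 0.34, and 1 passed. It was Cdkn1c, which encodes the cyclin-dependent kinase inhibitor p57, at 1175 and 2247 CPM in TPMCa and 9.03 and 18.1 CPM in TPM (log2 fold change 6.98, SE 0.636, adjusted p = 0.00702 from edgeR). Cdkn1c kept its call without any one library. That of Mest was lost without any one library of TPM, TPMCa or TPK, at adjusted p between 0.0914 and 0.255. Cdkn1c was also higher in TPMR1, at 106 and 94.2 CPM (log2 fold change 2.88 against TPM, adjusted p = 0.0311 from edgeR), a call lost without either TPM or TPK library or replicate 1 of TPMR1, at adjusted p between 0.0577 and 0.184. In TPMCa against TPM, 8 of the 25 paternal and 9 of the 26 maternal genes had an unadjusted p under 0.05, against 22.1% of all genes. By DESeq2, 8 and 6 were called, against 16%. In TPMR1 against TPM the median of the paternal genes was 0.13, and 0 passed with edgeR, with 2 at an unadjusted p under 0.05 and 2 by DESeq2. Of the 26 maternal genes, 2 passed with edgeR, 10 had an unadjusted p under 0.05 and DESeq2 called 9, with a median of 0.44. Of all genes, 5.58% passed with edgeR in that comparison, 23.1% had an unadjusted p under 0.05, and DESeq2 called 18.1%. Phlda2, a maternally expressed gene that limits placental growth, was lower in TPMR1, with 6 and 2 counts against 159 and 147 in TPM (log2 fold change -5.62, adjusted p = 0.0429 from edgeR), and this call was lost without any one library of TPM, TPMR1 or TPK, at adjusted p between 0.0774 and 0.162. In TPK against the mean of TPMCa and TPMR1, 1 paternal gene was higher and 2 were lower, and 1 maternal gene was higher and 5 were lower, where 10.3% of all genes were higher and 4.06% lower. At an unadjusted p under 0.05 there were 10 paternal and 12 maternal genes, against 32% of all genes. DESeq2 called 10 and 11, against 28.4% of all genes. Lower there were Cdkn1c at 6.29 and 11.1 CPM in TPK (log2 fold change -5.57, adjusted p = 0.00278), Peg10, a gene derived from a retrotransposon and needed in the placenta, at 1.14 and 0.198 CPM (-5.57, adjusted p = 0.0299), and Mest at 4.40 and 2.24 CPM (-4.95, adjusted p = 0.0198). Slc22a18, a maternally expressed transporter gene, was higher, at 9.49 and 22.9 CPM (log2 fold change 4.43, adjusted p = 0.012). The call for Cdkn1c was kept without any one library. Without either TPK library those for Mest (adjusted p = 0.0973 and 0.166) and Peg10 (0.089 and 0.189) were lost. The call for Peg10 was also lost without either TPMCa library (0.0833 and 0.0641) or replicate 2 of TPM (0.0502), and that for Slc22a18 was lost without replicate 1 of TPMCa (0.0527) or replicate 2 of TPK (0.096). Neither list had a gene called in TPK against TPM or in TPMR1 against TPMCa with edgeR. In TPK against TPM, 2 genes of each list had an unadjusted p under 0.05, against 7.17% of all genes. DESeq2 called 1 of each, against 1.51%. In TPMR1 against TPMCa 7 paternal and 4 maternal genes had an unadjusted p under 0.05, against 11.8% of all genes. There DESeq2 called 7 and 3, against 4.96%.

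The let-7 and LIN28 circuit was followed in 20 tested genes for the processing of let-7, in 22 tested mRNAs known as let-7 targets and in 21 mRNAs known to be bound by IGF2BP proteins. In TPMCa against TPM and TPMR1 against TPM, 0 processing genes and 0 target mRNAs passed with edgeR, against 3.48% and 5.58% of all genes. At an unadjusted p under 0.05 there were 3 processing genes and 4 targets in TPMCa, where DESeq2 called 2 of each, and 1 and 5 in TPMR1, where DESeq2 called 0 and 4. Of all genes, 22.1% in TPMCa and 23.1% in TPMR1 had an unadjusted p under 0.05, and DESeq2 called 16% and 18.1%. The medians of the processing genes were 0.16 and 0.14 on the log2 scale and those of the targets -0.04 and -0.47. Of the bound mRNAs, 0 passed in TPMCa (4 at an unadjusted p under 0.05, 3 by DESeq2). In TPMR1, 1 of them was called lower (5 at an unadjusted p under 0.05, 5 by DESeq2). It was Sox2, a stem cell transcription factor gene that is also on the list of other oncofetal genes, at 21.6 and 27.6 CPM in TPM but with 0 counts in either TPMR1 library, a level at least 174-fold lower (adjusted p = 0.0269 from edgeR). That call was lost without either TPM or TPK library, at adjusted p between 0.07 and 0.101. In TPK against the mean of TPMCa and TPMR1, 10.3% of all genes were higher and 4.06% lower. There 1 processing gene was higher and 3 lower, 2 targets were higher and 2 lower, and 2 bound mRNAs were higher and 2 lower. The medians were -0.11, -0.04 and 0.10. Each list held 8 genes at an unadjusted p under 0.05, against 32% of all genes. DESeq2 called 9, 7 and 7, against 28.4%. Sox2 was among the higher bound mRNAs, at 93.5 and 59.9 CPM in TPK and with 10 counts in all in the TPMCa and TPMR1 libraries (adjusted p = 0.00485 from edgeR). In TPK against TPM and TPMR1 against TPMCa, 0 genes of these 3 lists passed with edgeR, and at an unadjusted p under 0.05 each list held at most 2, and DESeq2 called at most 1. Of all genes, 7.17% and 11.8% had an unadjusted p under 0.05 in these comparisons, and DESeq2 called 1.51% and 4.96%.

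Of 14 tested genes known as oncofetal or stem cell genes, 5 were higher and 1 was lower in TPK than in the mean of TPMCa and TPMR1. Of all genes tested, 10.3% were higher and 4.06% lower in that comparison. Of the 14 genes, 9 had an unadjusted p under 0.05, against 32% of all genes, and DESeq2 called 10, against 28.4%. Besides Sox2, Prom1, which encodes the stem cell surface protein CD133 and is also made by glandular epithelium, was higher at 166 and 1130 CPM in TPK, against 0.116 to 3.06 CPM in TPMCa and TPMR1 (log2 fold change 8.84, SE 1.23, adjusted p = 0.00694 from edgeR). Peg10 was the lower one. Prom1 was at 206 and 178 CPM in TPM, and the epithelial markers given above were high in TPM and TPK too. In TPMCa against TPM 0 passed with edgeR, against 3.48% of all genes. There 6 had an unadjusted p under 0.05, against 22.1%, and DESeq2 called 5, against 16%. In TPMR1 against TPM Sox2 alone passed with edgeR, against 5.58% of all genes. Of the 14 genes, 5 had an unadjusted p under 0.05 there, against 23.1%, and DESeq2 called 4, against 18.1%. The medians of this list were -0.29 and -0.87 in those comparisons and -0.74 in TPK against the mean of TPMCa and TPMR1. In TPK against TPM and TPMR1 against TPMCa 0 passed with edgeR, with 2 at an unadjusted p under 0.05 in each and 2 and 1 by DESeq2. Of all genes, 7.17% and 11.8% had an unadjusted p under 0.05 in these comparisons, and DESeq2 called 1.51% and 4.96%. Over all lists, the share of the 119 tested genes that passed was 1.68% in TPMCa against TPM, against 3.48% of all genes, 2.52% in TPMR1 against TPM, against 5.58%, and 19.3% in TPK against the mean of TPMCa and TPMR1, against 14.4%.

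For each gene at 5 CPM or more in at least 2 libraries, the genes with the most similar log2 CPM over the 8 libraries were listed among 12830 expressed genes, or 12831 for Igf2bp1, as a description of libraries that share models and cell makeup. Igf2bp2 was most like Efnb2, an ephrin ligand gene (Pearson's r = 0.986, Spearman's rho = 1), Pigx (0.98, 0.976) and Pou3f1 (0.977, 0.952). Igf2bp1 was most like Rpusd2 (0.974, 0.833), Pigm (0.972, 0.929) and Eif1ad (0.954, 0.786), and Igf2bp3 like Zbtb8b (0.969, 0.952), Ppp1r12b (0.963, 0.905) and Tnni3 (0.962, 0.952). Dlk1 was most like Dkc1 (0.995, 0.976), Ube4b (0.99, 0.976) and Nup155 (0.988, 0.952). H19 was most like Atf2 (0.976, 0.976), Lyst (0.959, 0.881) and LOC106740 (0.953, 0.929). Peg3 was most like Fosb (0.98, 0.905), Nrk (0.979, 0.69) and Ppp1r15a (0.971, 0.857), and Plagl1 like Fam204a (0.952, 0.786), Lrrc75b (0.952, 0.738) and Bmp2k (0.948, 0.929). Within the 10 genes, Igf2bp2 and Igf2bp3 ran opposite to each other (r = -0.806, rho = -0.81 over 8 libraries).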

How the data were processed

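The authors sequenced polyadenylated RNA from 2 libraries of each of 4 models. A company trimmed the reads, and STAR aligned them to mm10. The deposited counts are whole reads per gene symbol. The counter, its annotation and its use of strand are not given in the sources used here. A deposited table of counts normalized with DESeq2 was not used. Groups came from the sample labels. The count columns used for TPM are headed TPMS, an S that no source used here explains, and were matched to TPM as the one labelled model with no other column. Every TPM value rests on that match. The counts were normalized by TMM in edgeR 4.0.16 (R 4.3.3) and filtered by filterByExpr, which left 15875 genes and 9 of the 10 members. One quasi-likelihood fit over all 8 libraries gave 5 comparisons and a joint test, with Benjamini-Hochberg adjustment over all genes tested and a threshold of 0.05. DESeq2 1.42.0, other scalings and filters, a replicate term, fits of only the models compared and leaving out each library were alternatives. The tests were checked on simulated counts. Samples with the same replicate number did not deviate together, with correlations between -0.069 and -0.008.

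Members and lists were chosen with earlier results of these data known. Named are the members, their domain neighbors, list genes that passed (where over 6 did, the 3 largest in each direction whose mean log2 CPM was 1 or more) and the 3 genes most like each member. Malsu1 was named after its values were seen, as was Dio3 for its call. Of 29 paternally expressed genes in the table, 25 were tested. Results on some engineered genes are not reported here.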

Additional observations from a re-analysis of the deposited data

How the results depend on the processing

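Another scaling (DESeq2 size factors in edgeR, or library size alone) changed no count of members called, and no setting other than leaving out a library reversed the sign of a member's log2 fold change. The Wald test of DESeq2, with a likelihood ratio test for the joint comparison, called more members: 5 in TPMCa against TPM, 5 in TPMR1 against TPM, 2 in TPK against TPM, 5 in TPK against the mean of TPMCa and TPMR1, 1 in TPMR1 against TPMCa and 6 jointly. For list genes it called 23, 21, 4, 48 and 10 in the same order. A fit of only the models compared called 3 members in TPMCa against TPM and 0 in TPMR1 against TPM, where Igf2bp2 had an adjusted p of 0.14 from edgeR, and its list genes numbered 10, 0 and 13 in TPMCa against TPM, TPMR1 against TPM and TPK against the mean of TPMCa and TPMR1. Without a filter on low counts 3 members were called in TPMR1 against TPM, and 6 list genes there and 6 in TPMCa against TPM. Library size alone gave 1 list gene in TPMCa against TPM and moved the median of all genes by -0.12 in TPK against the mean of TPMCa and TPMR1. A replicate block called 0 members in TPMR1 against TPM, with Igf2bp2 at an adjusted p of 0.0647 from edgeR, 1 member jointly, and 1 and 14 list genes in TPMCa against TPM and TPK against the mean of TPMCa and TPMR1. The numbers do not pair the samples. The cause of these changes was not tested.

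Leaving out each library in turn gave 0 to 4 members in TPMCa against TPM, 0 to 2 in TPMR1 against TPM, 0 in TPK against TPM, 0 to 4 in TPK against the mean of TPMCa and TPMR1, 0 to 2 in TPMR1 against TPMCa and 0 to 5 jointly. Counts of list genes ranged from 1 to 16 in TPMCa against TPM, 0 to 16 in TPMR1 against TPM, 3 to 32 in TPK against the mean of TPMCa and TPMR1, and 0 to 18 in TPMR1 against TPMCa, where replicate 2 of TPMR1 was the library left out for the highest count. Log2 fold changes of members that changed sign were, in TPMCa against TPM, Hmga2 from -0.52 to 2.51. In TPMR1 against TPM they were H19 from -1.63 to 3.28, Peg3 from -0.77 to 5.58 and Plagl1 from -0.34 to 1.24. In TPK against TPM they were Igf2bp3 from -0.19 to 0.50, Lin28a from -2.04 to 0.43, H19 from -3.71 to 1.68, Peg3 from -0.36 to 0.90 and Plagl1 from -0.59 to 0.056. In TPK against the mean of TPMCa and TPMR1 it was Hmga2 from -4.29 to 0.53. In TPMR1 against TPMCa they were Igf2bp1 from -2.54 to 0.35, Lin28a from -5.97 to 0.49, H19 from -5.37 to 0.78, Dlk1 from -1.65 to 1.99 and Peg3 from -6.62 to 0.34. None of these passed the threshold with all libraries. Taking the longest transcript as the length moved the mean level per length over all libraries from 0.384 to 0.721 CPM per kb for Igf2bp3 and from 17.8 to 26.5 for Plagl1.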
